A study of Homo sapiens with 6 samples.

Results

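Antisense long noncoding RNAs (lncRNAs) were followed in MDA-MB-231 cells depleted of BYSL. The 255 members were the rows of the deposited count table whose gene type is lncRNA, whose symbol ends in -AS and a digit, and whose raw counts summed to 200 or more over the 6 libraries; they were 255 of 964 lncRNA genes so named, of 8253 lncRNA genes and of 29538 genes in all. Members were chosen by their summed counts, and the comparison between groups was not used. PRR7-AS1 and SLC25A21-AS1, with 202 counts each, lay just inside the limit, and MUC12-AS1 with 197 and C1RL-AS1 with 196 counts lay just outside it. Each member was set beside the gene named before its suffix, here called its partner.

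Both groups were cultures of MDA-MB-231, an established line of human breast cancer cells of mesenchymal character known as triple negative. In the siBYSL group 3 cultures received an siRNA duplex against BYSL, whose product bystin is needed to mature the small ribosomal subunit, and in the siNC group 3 cultures received a negative-control siRNA whose sequence is not in the labels. Each well was given 160 pmol siRNA with 4 µL of Lipofectamine RNAiMAX, the medium was changed at 6 h and RNA was taken at 48 h. Libraries were poly(A)-selected and directional, so transcripts without a poly(A) tail were not measured. A single siRNA and a single line were used, so effects of BYSL loss and of that duplex cannot be told apart.

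Antisense lncRNAs are transcribed from the strand opposite a named gene. Some start near that gene's own promoter and run away from it or across its first exons, while others start within an intron or beyond its end. Known examples act on their neighbour during transcription, pair with its mRNA or bind microRNAs, whereas many have no known function and are degraded soon after they are made.

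BYSL was measured at 15.9, 15.7 and 17.4 CPM (counts scaled to library size) in siBYSL libraries, against 104, 94.5 and 101 CPM in siNC libraries, which leaves 16.4% of the siNC mean (log2 fold change -2.61, SE 0.07, edgeR adjusted p = 9.4e-09). Libraries held 27754883 to 32088817 counts. VIM, CD44, AXL, CAV1, FN1 and EGFR, which mark this line, were at 150.2 CPM or more in each library, and the mesenchymal factor ZEB1 averaged 42.7 CPM in siBYSL and 37.6 CPM in siNC libraries. The receptor genes ESR1 and PGR averaged 0.0302 and 0.280 CPM in siBYSL and 0.0238 and 0.257 CPM in siNC libraries, while ERBB2, GATA3 and the epithelial EPCAM and CDH1 averaged 61.9, 14.1, 20.9 and 9.18 CPM in siBYSL and 51.3, 13.3, 14.4 and 4.48 CPM in siNC libraries. Of markers of other cell types, PTPRC of leukocytes, CDH5 and VWF of endothelium, and ALB, APOA1 and DCN of hepatocytes and fibroblasts averaged at most 0.317 CPM in either group. CD68, PECAM1, COL1A1, COL1A2 and PDGFRB, of leukocytes, endothelium and fibroblasts, averaged 5.32, 6.48, 7.56, 1.82 and 6.08 CPM in siBYSL and 3.78, 5.32, 6.87, 1.25 and 4.61 CPM in siNC libraries. Library siBYSL 3 stood apart: over all genes its counts differed from those of siBYSL 1 and siBYSL 2 by a chi-square of 20.1 and 12.3 per degree of freedom, against 3.21 between siBYSL 1 and siBYSL 2 and 2.39 to 4.43 among siNC libraries. The main counts of member calls and of pair calls are therefore also given without it. Counts by gene class, arrangement, heptamer, untested partner or gene list are not.

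The siRNA is shown because several partners of members carry the heptamer that its guide strand can pair with. In the guide the capitals mark the seed, bases 2 to 8, and in the windows from partner 3′ untranslated regions (GENCODE 29 transcripts, GRCh38) they mark its reverse complement.
Guide strand of the BYSL siRNA: uAUUCAGCaacgucaucuctt
IDH1, first site: taaagaccttGCTGAATgtttccaata
IDH1, second site: aataatgtaaGCTGAATcttttttgga
DICER1: tagttgataaGCTGAATagaaagataa
CCNY: tattttcttaGCTGAATatgaatacct
TMPO: attattctctGCTGAATaaaaactgca
ENTPD3: ctgtttcttaGCTGAATatggaataaa
NNT: taaactcaggGCTGAATtataccatgt
The heptamers lie at chr2:208236528-208236534 and chr2:208236358-208236364 in IDH1 and at chr14:95090036-95090042 in DICER1, all on the minus strand. Those of CCNY at chr10:35571110-35571116, TMPO at chr12:98548267-98548273, ENTPD3 at chr3:40428583-40428589 and NNT at chr5:43705884-43705890 are on the plus strand. These 6 partners were picked because they were called lower in siBYSL libraries while their antisense lncRNA was called higher, so that pattern is no result. Over all pairs, 32 partners held the heptamer, of which 9 were lower and 4 higher. Their median log2 fold change was -0.00078, against -0.018 for the 194 without it. A match is a description and not a site of action.

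The RefSeq promoter windows (GRCh38.p14, 250 bases before to 50 after the start) of a member that faces its partner head to head and of the member that fell most, both chosen after their values were seen, are given with the GC box GGGCGG, on either strand, in capitals.
URB1-AS1, chr21:32392883-32393182, plus strand: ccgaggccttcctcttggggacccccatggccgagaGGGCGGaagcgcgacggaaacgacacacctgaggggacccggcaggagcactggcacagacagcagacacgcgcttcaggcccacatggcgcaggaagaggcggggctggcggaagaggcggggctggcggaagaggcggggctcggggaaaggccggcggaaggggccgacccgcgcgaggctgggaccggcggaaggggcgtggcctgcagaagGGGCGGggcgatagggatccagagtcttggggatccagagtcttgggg
HIF1A-AS3, chr14:61751048-61751347, minus strand: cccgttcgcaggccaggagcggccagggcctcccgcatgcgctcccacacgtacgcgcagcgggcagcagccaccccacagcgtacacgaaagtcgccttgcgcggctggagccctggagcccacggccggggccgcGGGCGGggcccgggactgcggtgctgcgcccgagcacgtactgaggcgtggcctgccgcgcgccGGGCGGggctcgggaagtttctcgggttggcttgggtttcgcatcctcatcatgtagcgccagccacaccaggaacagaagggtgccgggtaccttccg
Both windows hold 2 GC boxes, with a GC content of 71.3% for URB1-AS1 and 72.3% for HIF1A-AS3. The URB1 start lies 121 bases from that of URB1-AS1. Of the 192 members with a window in the table, 62.5% held the GC box, against 44.6% of all 27305 promoters, and the median GC content was 64.2%, against 58.3%. The CCAAT box was found in 31.8% of member windows and 35.7% of all, and TATAAA in 6.77% and 12.0%, with both strands searched. Motif shares were not tested.

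As a class, the antisense lncRNAs were more often called higher than lower in siBYSL cells. By edgeR's quasi-likelihood test, with p-values of all 16412 tested genes adjusted together by the Benjamini-Hochberg method and called under 0.05, 68 of the 255 members were higher and 25 lower in siBYSL than in siNC libraries. That is 26.7% and 9.80% of the members, beside 18.5% of all genes higher and 18.4% lower (36.9% in either direction), and 14.6% and 7.15% of the 2351 tested lncRNA genes. Among the 1157 tested lncRNA genes of 200 counts or more, members included, 20.5% were higher and 11.5% lower. All 255 passed the filter on low counts, and in 18 of them, 10 called higher and 1 lower, 1 of the groups held under 100 counts in sum, so that they reached the limit of 200 through the other group. The median log2 fold change of the members was 0.15 (quartiles -0.13 and 0.43), against 0.0066 for all genes, and 169 of the 255 values were above 0. Changes were small: 4 members rose by a log2 fold change of 1 or more and 1 fell by as much. In 121 members (47.5%) the CPM values of the groups did not overlap, near the 49.6% of all genes.

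Members together took 0.188%, 0.192% and 0.193% of all raw counts in siBYSL libraries, against 0.167%, 0.165% and 0.167% in siNC libraries. The groups did not overlap, and each siBYSL library lay above every siNC library. These shares are of plain library totals, unlike the CPM values, and with that scaling the median log2 fold change of all genes was 0.085. Set against the siNC mean, the median member stood 0.065, 0.16 and 0.20 higher on the log2 scale in siBYSL 1, 2 and 3, while the median of all genes stood at 0.0100, 0.0059 and 0.0070. Without siBYSL 3, 68 members were higher and 29 lower. Without siNC 2 the counts were 40 and 14, without siBYSL 2 they were 43 and 12, while 13 were lower without siNC 1 and 15 without siBYSL 1. In bulk RNA, more cells that make a transcript and more transcript per cell cannot be told apart.

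**Figure D1:**
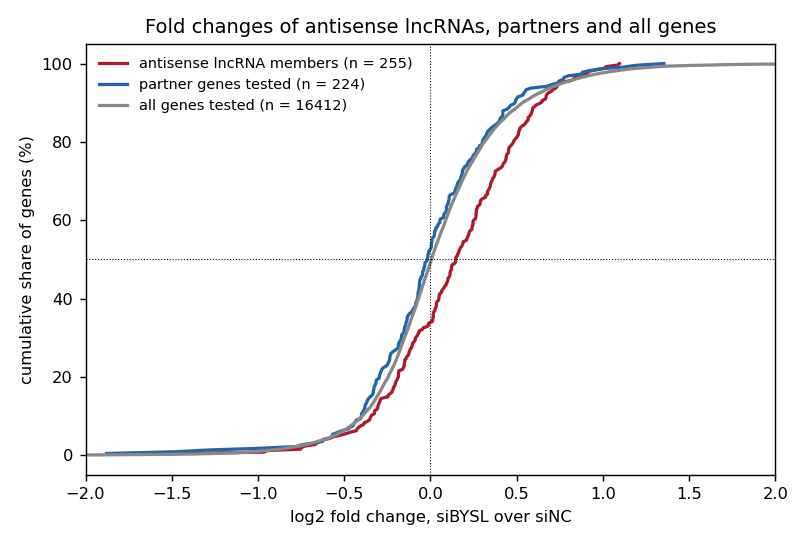
Cumulative share (%) of the 255 antisense lncRNAs, of their 224 tested partners and of all 16412 tested genes against the log2 fold change, siBYSL over siNC; values beyond 2 on either side are not drawn. The curve of the antisense lncRNAs lies to the right, with a median of 0.15 against -0.018 for partners and 0.0066 for all genes.

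Part of this picture was shared with other genes of similar level, and divergent and LINC lncRNAs were called higher about as often as members (26.7%). Protein-coding genes within the 5th to 95th percentile of member counts (228 to 4406 counts in sum, 5165 genes) were higher in 24.9% and lower in 14.1%, with a median log2 fold change of 0.075. The 902 other lncRNA genes of 200 counts or more had 169 higher (18.7%) and 108 lower (12.0%) calls and a median of 0.057. Divergent transcripts, named -DT, had 17 of 59 higher (28.8%), 5 lower (8.47%) and a median of 0.21. LINC genes had 32 of 119 higher (26.9%), 15 lower (12.6%) and a median of 0.18. The small nucleolar RNA host genes (SNHG) went the other way, with 0 of 23 higher, 8 lower and a median of -0.15. The 224 tested partner genes had 47 higher and 55 lower calls and a median of -0.018. Differences between these classes were not tested.

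**Figure D2:**
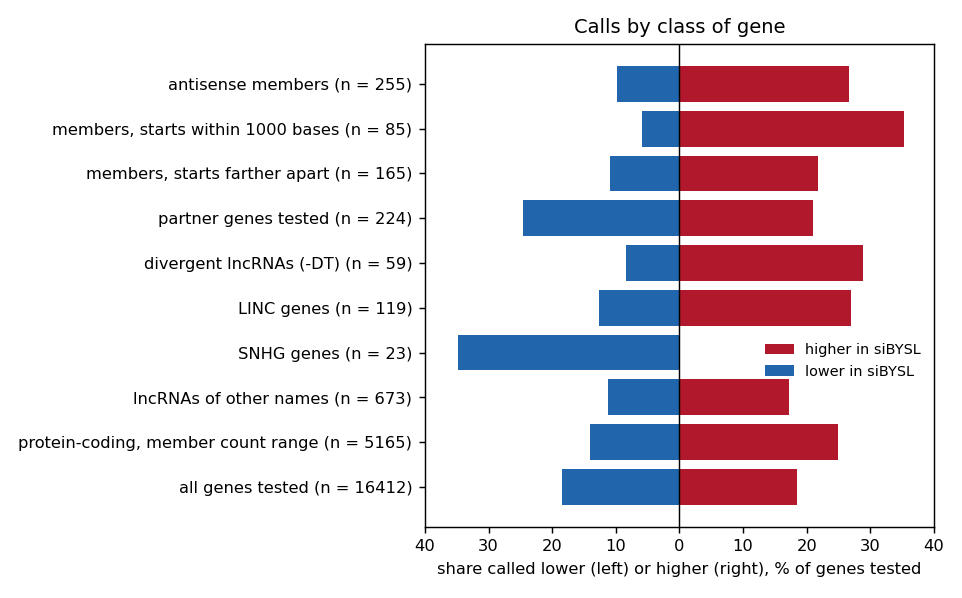
Share of tested genes called lower (left) or higher (right) in siBYSL than in siNC libraries, in %, by class of gene, from edgeR's quasi-likelihood test. Antisense members reached 26.7% higher and 9.80% lower, members that start within 1000 bases of their partner 35.3% and 5.88%, and SNHG genes 0% and 34.8%.

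Most members were rare transcripts. Their mean level over the 6 libraries had a median of 3.13 CPM and ran from 1.13 to 121.1 CPM, with 47 members above 10 CPM, while the tested partners had a median of 32.7 CPM. Per kilobase of annotated exon, a member reached a median of 27.4% of its partner's level in siBYSL libraries (quartiles 8.38% and 72.9%), against 25.7% in siNC libraries (7.46% and 80.1%). In 51 of 226 pairs the member was above its partner per length in siBYSL and in 49 in siNC libraries. Lengths of the longest transcript in place of all exons gave 25.5% and 22.1%.

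10 members stand for the rises by a fixed naming rule, the largest log2 fold changes among members that were called and did not overlap between groups. HAS2-AS1, antisense to the gene of a hyaluronan synthase, was measured at 1.42, 1.75 and 1.77 CPM in siBYSL libraries, against 0.930, 0.642 and 0.741 CPM in siNC libraries (log2 fold change 1.10, SE 0.22, edgeR adjusted p = 0.00265). FUT8-AS1, whose partner adds core fucose to N-glycans, had 1.28, 2.03 and 1.81 CPM in siBYSL libraries, against 0.966, 0.749 and 0.707 CPM in siNC libraries (log2 fold change 1.08, SE 0.24, edgeR adjusted p = 0.00492). In both, every siBYSL library was above every siNC library, and the partners rose as well, HAS2 by 1.35 and FUT8 by 0.33 on the log2 scale (edgeR adjusted p = 7.8e-05 and 0.00238). HAS2-AS1 and FUT8-AS1 rested on few reads, with 150 and 156 counts in sum in siBYSL and 66 and 69 in siNC libraries, and reached the limit of 200 counts through the siBYSL group.

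IGFL2-AS1 was the most abundant of these rises, with 46.8, 49.4 and 67.7 CPM in siBYSL libraries, against 31.3, 21.9 and 28.1 CPM in siNC libraries (log2 fold change 1.01, SE 0.15, edgeR adjusted p = 0.000407). All siBYSL libraries exceeded all siNC libraries, siBYSL 3 being the highest of the 6. Its partner IGFL2, an insulin growth factor-like gene, held 1 count in all 6 libraries, and the annotated genes lie apart, with starts 59977 bases from each other. No exon of IGFL2-AS1 (chr19:46189166-46203083, minus strand) lies under an annotated exon of the opposite strand.

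GOLGA4-AS1, named for a golgin of the trans-Golgi, was at 2.39, 2.54 and 2.22 CPM in siBYSL libraries, against 1.00, 1.25 and 1.28 CPM in siNC libraries (log2 fold change 1.02, SE 0.17, edgeR adjusted p = 0.00104). CCDC18-AS1 was at 7.14, 6.96 and 7.08 CPM in siBYSL libraries, against 3.83, 3.64 and 3.37 CPM in siNC libraries (log2 fold change 0.97, SE 0.10, edgeR adjusted p = 5.94e-05). Neither overlapped between groups, and CCDC18-AS1 had the tightest siBYSL values of the 10. GOLGA4 itself gave a log2 fold change of 0.09 (edgeR adjusted p = 0.535; without siBYSL 3, 0.23, edgeR adjusted p = 0.000179), while CCDC18 was higher by 0.46 (edgeR adjusted p = 0.0124), a call lost without siBYSL 2 or siNC 1 (edgeR adjusted p = 0.0664 and 0.0581). PCF11-AS1, antisense to a factor of transcription termination, had 2.11, 2.84 and 2.74 CPM in siBYSL libraries, against 1.65, 1.25 and 1.21 CPM in siNC libraries (log2 fold change 0.91, SE 0.19, edgeR adjusted p = 0.00377). All of its annotated exonic bases lie under exons of PCF11 on the other strand, and PCF11 itself gave 0.10 (edgeR adjusted p = 0.195; with library totals, 0.18, edgeR adjusted p = 0.0451).

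SGMS1-AS1, beside a sphingomyelin synthase gene, had 1.91, 2.39 and 1.74 CPM in siBYSL libraries, against 0.930, 1.18 and 1.15 CPM in siNC libraries (log2 fold change 0.89, SE 0.20, edgeR adjusted p = 0.00522), and LENG8-AS1 had 1.39, 1.42 and 1.87 CPM in siBYSL libraries, against 0.716, 0.856 and 1.04 CPM in siNC libraries (log2 fold change 0.83, SE 0.23, edgeR adjusted p = 0.0148). Their groups did not overlap. Both reached 200 counts through the siBYSL group, with 184 and 141 counts in siBYSL and 93 and 75 in siNC libraries. The LENG8-AS1 call was lost without siNC 1 (edgeR adjusted p = 0.0618). Their partners gave 0.01 and -0.08, neither past the threshold (edgeR adjusted p = 0.961 and 0.330). The remaining rises among the 10, CCNY-AS1 and URB1-AS1, belong to pairs that moved in opposite directions and are described with them.

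**Figure D3:**
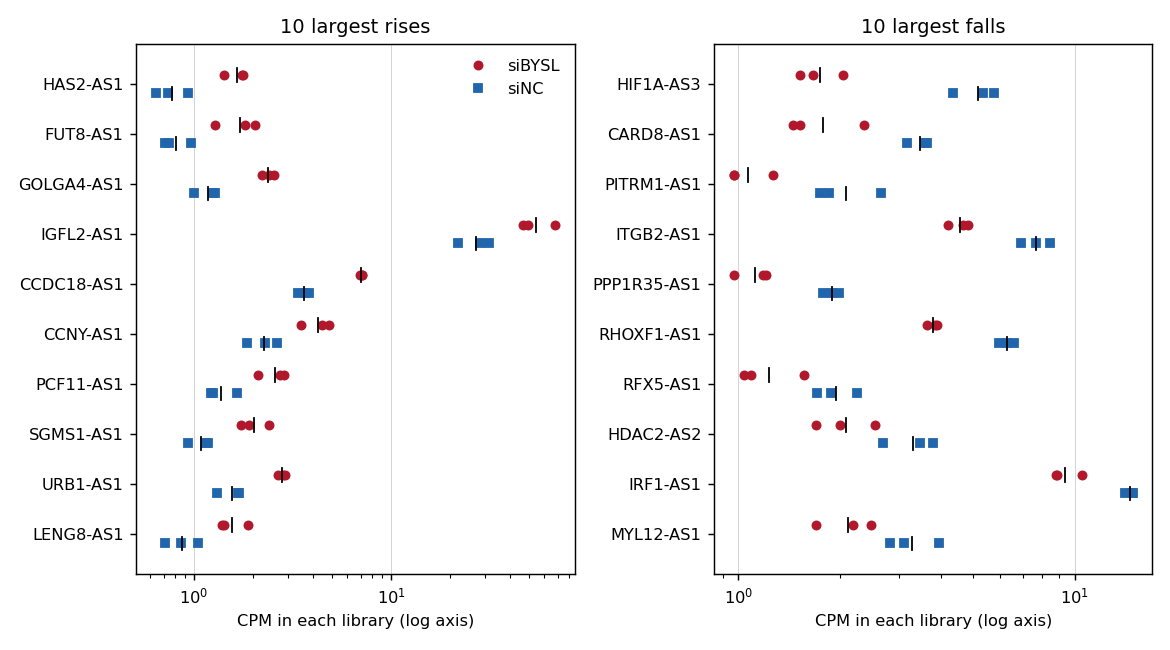
CPM (log axis) in each library for the 10 members with the largest rises (left) and the 10 with the largest falls (right); circles are siBYSL libraries, squares are siNC libraries and short bars are group means. In each of the 20 members the groups do not overlap, as the naming rule required, and HIF1A-AS3 has the widest gap.

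HIF1A-AS3 fell most. It was at 1.52, 1.66 and 2.05 CPM in siBYSL libraries, against 5.76, 4.35 and 5.32 CPM in siNC libraries (log2 fold change -1.56, SE 0.16, edgeR adjusted p = 4.56e-05), and the highest siBYSL library, at 2.05 CPM, lay below the lowest siNC library, at 4.35 CPM. The gene (chr14:61715558-61751097, minus strand, GRCh38) overlaps HIF1A, which encodes the oxygen-regulated subunit of the hypoxia-inducible factor, but shares no exonic base with it. HIF1A had 600.2, 552 and 415 CPM in siBYSL libraries, against 425, 454 and 442 CPM in siNC libraries (log2 fold change 0.25, SE 0.11, edgeR adjusted p = 0.101), with siBYSL 3 lowest of all 6 libraries. Without siBYSL 3, HIF1A was called higher (log2 fold change 0.39, edgeR adjusted p = 2.96e-07), as it was with library totals (edgeR adjusted p = 0.0465) or with no filter on low counts (0.00184). HIF1A-AS3 stood at 0.254%, 0.302% and 0.494% of HIF1A counts in siBYSL libraries, against 1.36%, 0.958% and 1.20% in siNC libraries.

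CARD8-AS1, beside the gene of an inflammasome sensor, had 1.52, 1.45 and 2.36 CPM in siBYSL libraries, against 3.58, 3.64 and 3.17 CPM in siNC libraries (log2 fold change -0.97, SE 0.19, edgeR adjusted p = 0.00254). PITRM1-AS1, beside a mitochondrial peptidase gene, had 0.970, 1.27 and 0.972 CPM in siBYSL libraries, against 2.65, 1.86 and 1.75 CPM in siNC libraries (log2 fold change -0.95, SE 0.22, edgeR adjusted p = 0.00669). ITGB2-AS1, antisense to the gene of the leukocyte integrin beta chain, had 4.82, 4.21 and 4.65 CPM in siBYSL libraries, against 8.44, 7.67 and 6.91 CPM in siNC libraries (log2 fold change -0.75, SE 0.11, edgeR adjusted p = 0.000486). In all of them each siBYSL value was under each siNC value. PITRM1-AS1 held 98 counts in siBYSL and 178 in siNC libraries, and reached 200 through the siNC group. CARD8 gave 0.03 (edgeR adjusted p = 0.762), whereas PITRM1 and ITGB2 fell with their antisense genes, by 0.68 and 0.78 on the log2 scale (edgeR adjusted p = 4.26e-06 and 8.74e-05).

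IRF1-AS1 had 8.80, 8.83 and 10.5 CPM in siBYSL libraries, against 14.1, 14.8 and 14.9 CPM in siNC libraries (log2 fold change -0.64, SE 0.09, edgeR adjusted p = 0.000317), and IRF1, an interferon-regulated transcription factor gene, fell by 0.32 on the log2 scale (edgeR adjusted p = 0.000462). RHOXF1-AS1 had 3.64, 3.90 and 3.85 CPM in siBYSL libraries, against 5.98, 6.60 and 6.30 CPM in siNC libraries (log2 fold change -0.73, SE 0.11, edgeR adjusted p = 0.000404), while the homeobox gene RHOXF1 held 3 counts in all. Neither member overlapped between groups. Falls were also called for PPP1R35-AS1 (-0.75, edgeR adjusted p = 0.00744), RFX5-AS1 (-0.67, 0.0282), HDAC2-AS2 (-0.66, 0.0187) and MYL12-AS1 (-0.62, 0.0220), whose means lay between 1.12 and 2.12 CPM in siBYSL and between 1.89 and 3.32 CPM in siNC libraries. PPP1R35, a centriole gene, fell by 0.39 on the log2 scale (edgeR adjusted p = 0.00484). RFX5 and HDAC2 gave -0.12 and -0.02 (edgeR adjusted p = 0.175 and 0.821).

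Single libraries decided some of these calls. RFX5-AS1 was not called without siBYSL 1, siBYSL 2, siNC 1 or siNC 2 (edgeR adjusted p = 0.0803, 0.107, 0.110 and 0.0633), HDAC2-AS2 not without siNC 1 or siNC 2 (0.0798 and 0.0612) and MYL12-AS1 not without siBYSL 1 or siNC 1 (0.0633 and 0.0988). Over all members, 32 of the 68 higher and 10 of the 25 lower calls held under every one of 15 alternative fits.

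Members differed by where they start. In 85 members the annotated start lay within 1000 bases of the partner's start (GENCODE 29, GRCh38), and 30 of these were higher and 5 lower, with a median log2 fold change of 0.24. Among the 165 members with starts farther apart, 36 were higher and 18 lower, with a median of 0.11. As shares, 35.3% of the near members and 21.8% of the far members were higher, beside 18.5% of all genes. With 1 library left out, 21 to 29 near members were higher, against 16 (without siNC 2) to 37 far members (20 without siBYSL 2 and 23 without siNC 3). The near members called lower numbered 3 without siBYSL 1, siBYSL 2, siNC 1 or siNC 2. The far members called lower numbered 8 without siBYSL 2, 9 without siNC 1, 10 without siNC 2, 11 without siBYSL 1, 12 without siNC 3 and 22 without siBYSL 3. The difference between near and far members was not tested.

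Exons of 204 members overlapped exons of the partner on the opposite strand, 28 members overlapped the partner without sharing exonic bases, 13 stood head to head within 1000 bases, 5 lay apart, and 5 had no partner row (FGD5-AS1, TLR8-AS1, CKMT2-AS1, MYL12-AS1 and PGM5P3-AS1), so their partners are not analysed here. Libraries were directional, but whether counting used strand is not stated, and without strand the reads of overlapping exons on opposite strands could not be told apart. A median of 11.7% of a member's exonic bases lay under exons of the other strand. The 36 members with no such base had 7 higher (19.4%) and 3 lower (8.33%) calls, beside 18.5% and 18.4% of all genes, and a median log2 fold change of 0.22. The 28 members that overlap a partner without shared exonic bases had a median of 0.31 (7 higher, 3 lower), the 204 with exon overlap 0.12 (54 higher, 20 lower). Among 21 members whose partner is a zinc-finger gene, a group picked after seeing the data, 5 (23.8%) were higher and 0 lower by edgeR, as were 7 and 0 of those partners, beside 26.7% and 9.80% of all members.

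In 226 pairs both genes were tested. Both were called in 44 pairs, of which 27 moved in the same direction (16 up, 11 down) and 17 in opposite directions. In 16 of the 17 the antisense lncRNA was higher and the partner lower. This split stands beside calls that leaned the same way in each class taken alone. Over all 255 members 68 were higher and 25 lower, and over the 224 tested partners 47 were higher and 55 lower. A link within pairs was not tested. The opposite share, 38.6% of 44, stood beside 43.4% of the 346 doubly called pairs of protein-coding genes on opposite strands. The ratio of member to partner did not overlap between groups in 91 pairs (40.3%; 57 higher and 34 lower), against 51.2% of the 2394 protein-coding pairs. Over all 226 pairs the median difference, member minus partner log2 fold change, was 0.090, and 0.046 without siBYSL 3. Set against the siNC mean, the median log2 ratio of member to partner stood at 0.00055, 0.097 and 0.10 in siBYSL 1, 2 and 3. With 1 library left out, between 6 (without siNC 2) and 17 (without siBYSL 3) pairs had the member higher and the partner lower; the count was 7 without siNC 1, 8 without siBYSL 2 and 9 without siNC 3. Pairs that rose together numbered 6 without siBYSL 2 or siNC 2, 7 without siNC 3, 9 without siNC 1 and 20 without siBYSL 3, and pairs that fell together 7 without siBYSL 1, siBYSL 2, siNC 1 or siNC 2 and 15 without siBYSL 3.

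**Figure D4:**
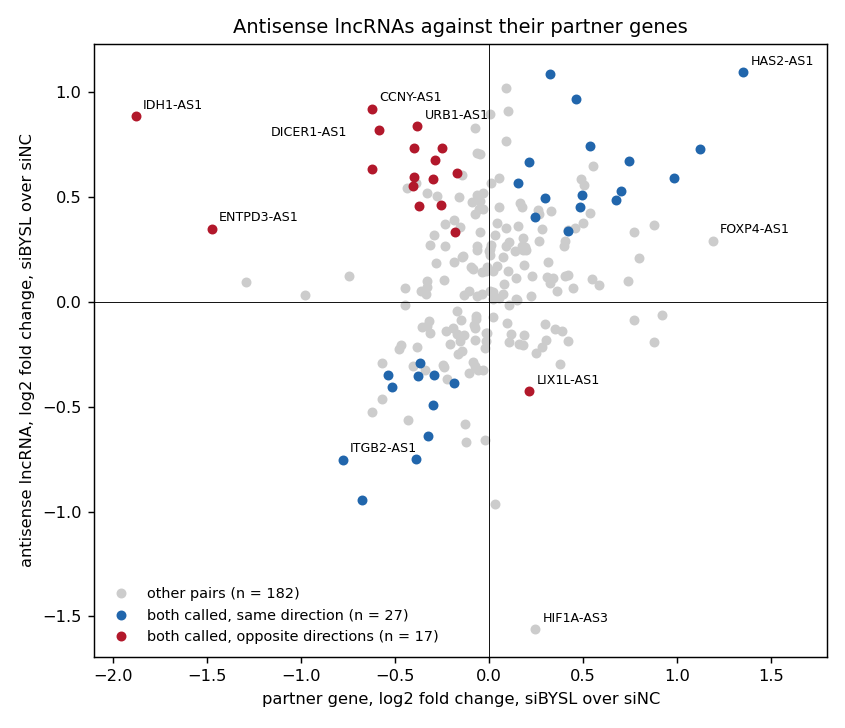
Log2 fold change (siBYSL over siNC) of 226 antisense lncRNAs against that of their partners. Red points are the 17 pairs called in opposite directions, 16 of them in the upper left, blue points the 27 called in the same direction and grey points the other 182.

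Across pairs the fold changes had a Pearson r of 0.19 and a Spearman rho of 0.23 (n = 226), a description, since both genes were read in the same libraries. Within the 187 pairs with exon overlap r was 0.26, and within the 22 tested pairs that overlap without shared exons it was -0.23. Protein-coding pairs on opposite strands had an r of 0.040 (n = 2394).

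In 5 of the 17 opposite pairs both calls held under all 15 alternative fits, among them CCNY, DICER1, URB1 and TMPO with their antisense lncRNAs. CCNY-AS1 had 3.50, 4.48 and 4.83 CPM in siBYSL libraries, against 2.65, 2.28 and 1.85 CPM in siNC libraries (log2 fold change 0.92, SE 0.17, edgeR adjusted p = 0.00191). CCNY, which encodes cyclin Y, had 46.5, 46.6 and 44.5 CPM in siBYSL libraries, against 70.9, 72.0 and 69.1 CPM in siNC libraries (log2 fold change -0.62, SE 0.05, edgeR adjusted p = 1.23e-05). Neither gene overlapped between groups, and the antisense counts were 7.53, 9.61 and 10.8% in siBYSL libraries, against 3.74, 3.17 and 2.68% in siNC libraries of the CCNY counts. CCNY-AS1 (chr10:35314552-35336401, minus strand) overlaps CCNY but none of its exonic bases.

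DICER1 encodes the RNase that cuts microRNA precursors and long double-stranded RNA. DICER1-AS1 had 1.66, 1.88 and 2.08 CPM in siBYSL libraries, against 1.00, 0.999 and 1.18 CPM in siNC libraries (log2 fold change 0.82, SE 0.19, edgeR adjusted p = 0.00585). DICER1 had 41.3, 41.4 and 34.1 CPM in siBYSL libraries, against 57.8, 58.1 and 59.0 CPM in siNC libraries (log2 fold change -0.58, SE 0.08, edgeR adjusted p = 0.000189). Groups were apart in both genes, and 365 bases separate their starts, with 80 exonic bases in common. DICER1-AS1 held 170 counts in siBYSL and 91 in siNC libraries, and reached 200 through the siBYSL group.

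URB1, a nucleolar factor of large ribosomal subunit assembly, and URB1-AS1 face each other head to head with annotated starts 104 bases apart in GENCODE 29 and no shared base. URB1-AS1 had 2.88, 2.66 and 2.81 CPM in siBYSL libraries, against 1.68, 1.68 and 1.31 CPM in siNC libraries (log2 fold change 0.84, SE 0.16, edgeR adjusted p = 0.00216). URB1 had 19.7, 18.8 and 18.0 CPM in siBYSL libraries, against 24.0, 25.3 and 24.3 CPM in siNC libraries (log2 fold change -0.38, SE 0.07, edgeR adjusted p = 0.00124). The ratio of antisense to URB1 counts was 14.6, 14.2 and 15.6% in siBYSL libraries, against 7.01, 6.64 and 5.40% in siNC libraries, with no overlap.

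TMPO, a gene of the nuclear lamina, showed the same pattern at a higher antisense level. TMPO-AS1 had 8.77, 9.77 and 9.41 CPM in siBYSL libraries, against 6.12, 6.46 and 6.10 CPM in siNC libraries (log2 fold change 0.58, SE 0.09, edgeR adjusted p = 0.00064). Every siBYSL value was above every siNC value. TMPO fell by 0.30 on the log2 scale (edgeR adjusted p = 0.00244). TMPO-AS1 shares 713 exonic bases with TMPO.

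The widest gaps between member and partner were in IDH1 and ENTPD3, named here after their values were seen. IDH1, the cytosolic isocitrate dehydrogenase gene, had 45.2, 44.0 and 40.0 CPM in siBYSL libraries, against 153, 161 and 161 CPM in siNC libraries (log2 fold change -1.88, SE 0.06, edgeR adjusted p = 2.98e-08). IDH1-AS1 had 1.11, 1.69 and 2.19 CPM in siBYSL libraries, against 1.11, 0.642 and 0.943 CPM in siNC libraries (log2 fold change 0.89, SE 0.29, edgeR adjusted p = 0.0320). Here the lowest siBYSL value of IDH1-AS1 lay at the highest siNC value, and the call was lost without siBYSL 2, siBYSL 3, siNC 2 or siNC 3 (edgeR adjusted p = 0.0851, 0.0599, 0.120 and 0.0808). It held 151 counts in siBYSL and 77 in siNC libraries, and reached 200 through the siBYSL group. ENTPD3, an ectonucleotidase gene, had 6.52, 6.41 and 5.14 CPM in siBYSL libraries, against 15.5, 17.1 and 17.7 CPM in siNC libraries (log2 fold change -1.47, SE 0.11, edgeR adjusted p = 4.28e-06). ENTPD3-AS1 had 7.04, 6.17 and 6.98 CPM in siBYSL libraries, against 5.40, 5.17 and 5.26 CPM in siNC libraries (log2 fold change 0.35, SE 0.10, edgeR adjusted p = 0.0210), and its call was lost without siBYSL 1, siNC 1, siNC 2 or siNC 3 (edgeR adjusted p = 0.0600, 0.0527, 0.0707 and 0.0717) and by DESeq2 (adjusted p = 0.0527). ENTPD3-AS1 counts, in % of ENTPD3 counts, were 108, 96.2 and 136% in siBYSL libraries, against 35.0, 30.2 and 29.7% in siNC libraries.

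PPM1F-AS1 had 3.57, 2.78 and 2.74 CPM in siBYSL libraries, against 1.75, 1.46 and 2.22 CPM in siNC libraries (log2 fold change 0.73, SE 0.19, edgeR adjusted p = 0.0111; without siNC 2, edgeR adjusted p = 0.0501), and PPM1F, a protein phosphatase gene, fell by 0.40 on the log2 scale (edgeR adjusted p = 0.000295). GABPB1-AS1, named here after its value was seen, had 23.5, 23.2 and 24.3 CPM in siBYSL libraries, against 13.3, 14.9 and 14.5 CPM in siNC libraries (log2 fold change 0.73, SE 0.07, edgeR adjusted p = 3.09e-05). Its groups did not overlap, whereas GABPB1, a subunit of an ETS transcription factor, fell by 0.25 on the log2 scale (edgeR adjusted p = 0.0347), a call lost without siBYSL 1, siNC 1, siNC 2 or siNC 3 (edgeR adjusted p = 0.0659, 0.114, 0.0958 and 0.0688), with library totals (-0.17, 0.147) or with upper-quartile factors (0.0689). NNT-AS1 had 27.3, 27.9 and 27.3 CPM in siBYSL libraries, against 21.9, 21.3 and 22.4 CPM in siNC libraries (log2 fold change 0.33, SE 0.06, edgeR adjusted p = 0.00163), and NNT, the mitochondrial transhydrogenase gene, had 98.8, 97.6 and 85.3 CPM in siBYSL libraries, against 105, 107 and 107 CPM in siNC libraries (log2 fold change -0.18, SE 0.06, edgeR adjusted p = 0.0429). The NNT call was lost without siBYSL 2, siNC 1, siNC 2 or siNC 3 (edgeR adjusted p = 0.0670, 0.0947, 0.124 and 0.128), with library totals (-0.099, 0.285), with upper-quartile factors (0.0982) or with a replicate block (0.0578), while NNT-AS1 kept its own in each.

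Further pairs with a higher member were DNAJC9, TAF1A, NIFK, DNMBP, RAB11B and PPP1R12A with members higher by 0.45 to 0.67 and partners of -0.62 to -0.17 on the log2 scale. Each of these 6 lost the member's or the partner's call when 1 or another library was left out. DNAJC9-AS1 stands in 2 rows of the table, kept apart by identifier: the one placed 3929 bases from the DNAJC9 start was called higher (0.63) and the other, with shared exons, was not called (-0.52, edgeR adjusted p = 0.123). LIX1L-AS1 was the only member of the 17 that was lower (-0.43) with a higher partner (0.21), and its call was lost without siBYSL 1, siBYSL 2, siNC 1 or siNC 3 (edgeR adjusted p = 0.113, 0.107, 0.183 and 0.0924). It was also lost with library totals, upper-quartile factors or a replicate block (edgeR adjusted p = 0.0854, 0.0693 and 0.0672), by DESeq2 (adjusted p = 0.0815) and by limma-voom (adjusted p = 0.0529). In all 17 the ratio did not overlap between groups, which follows largely from choosing the pairs by opposite calls in the same libraries. The exact two-sided permutation test over 3 and 3 libraries gave p = 0.1 for each, the smallest it can give, and adds no separate support.

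**Figure D5:**
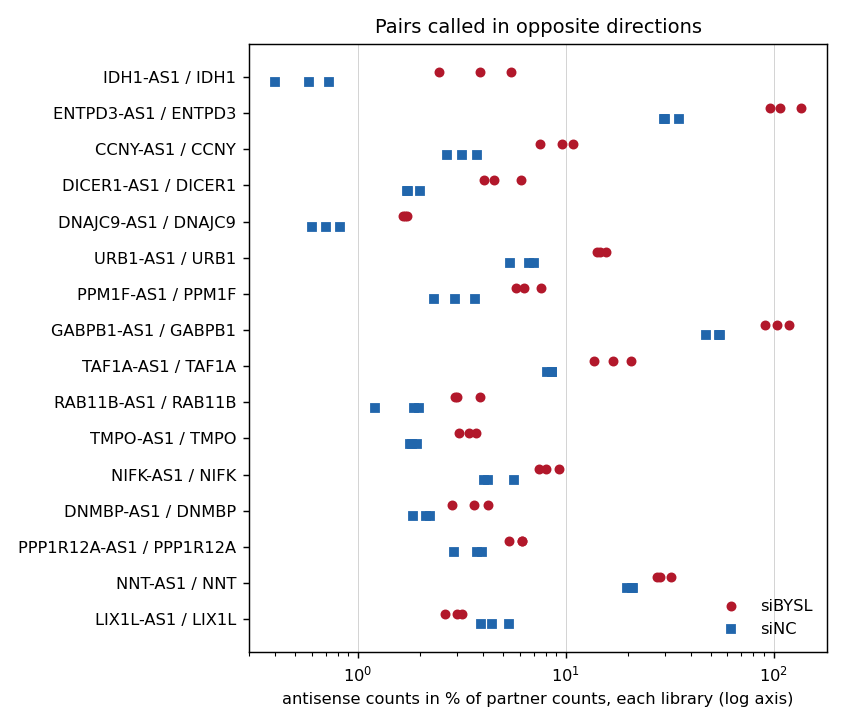
Antisense counts in % of the partner's counts (log axis) in each library for 16 of the 17 pairs called in opposite directions; circles are siBYSL libraries and squares siNC libraries. In every pair drawn above LIX1L-AS1 all siBYSL libraries lie to the right of all siNC libraries, and in LIX1L-AS1 they lie to the left.

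Of the 16 partners that were lower under a higher member, 6 held the guide heptamer in their 3′ untranslated region, as did 1 of the 11 partners that fell with their member and 3 of the 16 that rose with it. Over all 226 pairs, 32 partners held it. Of these 9 were lower and 4 higher, and of their members 2 were lower and 12 higher. Among the other 194 pairs, 47 partners were lower and 43 higher, and 19 members were lower and 47 higher. The guide heptamer was also in transcripts of 54 of the 255 members (21.2%), against 274 of 1971 other tested lncRNA genes with sequence (13.9%), whose longest transcripts had a median of 1359 bases, against 2158 in members. Members with it had 14 higher and 5 lower calls, and members without it 54 and 20, or 25.9% and 26.9% higher. The part of the heptamer in these changes was not tested.

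Among pairs that moved together, HAS2 and KLRK1 rose most. HAS2 had 8.66, 8.56 and 6.21 CPM in siBYSL libraries, against 2.93, 3.46 and 2.80 CPM in siNC libraries (log2 fold change 1.35, SE 0.15, edgeR adjusted p = 7.8e-05). KLRK1, known as the NKG2D receptor gene of lymphocytes, had 7.49, 7.59 and 6.11 CPM in siBYSL libraries, against 3.33, 3.50 and 2.93 CPM in siNC libraries (log2 fold change 1.12, SE 0.13, edgeR adjusted p = 8.51e-05), and KLRK1-AS1 had 3.81, 3.45 and 4.17 CPM in siBYSL libraries, against 2.18, 1.89 and 2.80 CPM in siNC libraries (log2 fold change 0.73, SE 0.16, edgeR adjusted p = 0.00564). Groups were apart in these genes, and the leukocyte marker PTPRC averaged 0.169 CPM in siBYSL and 0.0926 CPM in siNC libraries. PCBP1-AS1 had 15.7, 18.0 and 15.3 CPM in siBYSL libraries, against 21.1, 21.0 and 20.5 CPM in siNC libraries (log2 fold change -0.35, SE 0.08, edgeR adjusted p = 0.00484), and PCBP1, an RNA-binding protein gene, fell by 0.38 on the log2 scale (edgeR adjusted p = 0.00016). PAX8-AS1 had 47.2, 44.1 and 46.7 CPM in siBYSL libraries, against 54.3, 57.2 and 57.5 CPM in siNC libraries (log2 fold change -0.29, SE 0.06, edgeR adjusted p = 0.00230). PAX8 fell by 0.37 on the log2 scale (edgeR adjusted p = 0.00988; without siNC 3, 0.0512), and PAX8-AS1 counts were 652, 616 and 604% in siBYSL libraries, against 549.6, 652 and 580.3% in siNC libraries of PAX8 counts. ITGB2 and IRF1 fell with their members as given above. Both calls held under all 15 alternatives in 3 of the 16 rising and 6 of the 11 falling pairs. Of the rising pairs, the members LPP-AS2 and SEPTIN4-AS1 held 165 and 131 counts in siBYSL and 98 and 82 in siNC libraries. Like HAS2-AS1 and FUT8-AS1, these members met the count limit through the siBYSL group.

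Of the 8 members of highest mean level, IGFL2-AS1 is described above, and the other 7 had log2 fold changes of -0.29 to 0.25. FGD5-AS1, the highest, had 137, 139 and 116 CPM in siBYSL libraries, against 108, 116 and 110.2 CPM in siNC libraries (log2 fold change 0.23, SE 0.07, edgeR adjusted p = 0.0274). The lowest siBYSL value was at the level of siNC 2, and the call was lost without siBYSL 1, siBYSL 2, siNC 1 or siNC 3 (edgeR adjusted p = 0.0630, 0.126, 0.109 and 0.105). OIP5-AS1, the human counterpart of the zebrafish Cyrano RNA that triggers decay of a microRNA, had 77.1, 75.4 and 69.1 CPM in siBYSL libraries, against 80.9, 82.5 and 83.0 CPM in siNC libraries (log2 fold change -0.15, SE 0.06, edgeR adjusted p = 0.0535). It missed the threshold although the groups did not overlap, and it passed without siBYSL 1 or siBYSL 3 (edgeR adjusted p = 0.0351 and 0.0424), with DESeq2's size factors (0.0462) and with no filter (0.0483). PSMA3-AS1 was higher by 0.21 (edgeR adjusted p = 0.0143; 0.0530, 0.0670 and 0.0646 without siBYSL 2, siNC 1 or siNC 3) and ZBED5-AS1 by 0.25 (0.0157; 0.0746, 0.0654 and 0.0825 without siBYSL 2, siNC 1 or siNC 2). THAP9-AS1 and AFAP1-AS1 gave -0.11 and 0.05 (edgeR adjusted p = 0.219 and 0.585), while AFAP1, a gene of an actin filament protein, was higher by 0.36 (edgeR adjusted p = 0.00358).

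Other well-studied members gave mixed results. MAPKAPK5-AS1 was higher, with 23.3 ± 1.51 CPM in siBYSL libraries, against 18.6 ± 1.03 CPM in siNC libraries (SD, n = 3 each; log2 fold change 0.32, SE 0.08, edgeR adjusted p = 0.00693), and its kinase partner gave 0.03 (edgeR adjusted p = 0.695). EPB41L4A-AS1 was lower, with 13.9 ± 0.365 CPM in siBYSL libraries, against 16.5 ± 0.826 CPM in siNC libraries (SD, n = 3 each; log2 fold change -0.25, SE 0.07, edgeR adjusted p = 0.0226), a call lost without siBYSL 1, siBYSL 2, siNC 1 or siNC 2 (edgeR adjusted p = 0.0590, 0.0544, 0.0872 and 0.0844), with library totals (-0.17, 0.101) or with upper-quartile factors (0.0518). VIM-AS1 gave -0.20 (edgeR adjusted p = 0.0824; with no filter, 0.0373), beside a fall of VIM, the vimentin gene, by 0.21 on the log2 scale (edgeR adjusted p = 0.00823; without siNC 1, 0.0546; with library totals, -0.13, 0.0692). FOXP4-AS1 gave 0.29 (edgeR adjusted p = 0.211) beside a rise of FOXP4, a forkhead factor gene, by 1.19 (edgeR adjusted p = 4.33e-07). FOXP4-AS1 counts were 1.86, 1.56 and 1.48% in siBYSL libraries, against 2.74, 2.88 and 3.49% in siNC libraries of FOXP4 counts, without overlap. MCM3AP-AS1 gave 0.42 (edgeR adjusted p = 0.0572) and passed without siBYSL 3 or siNC 1 (edgeR adjusted p = 0.0189 and 0.0243), and with library totals, upper-quartile factors, no filter or a replicate block (0.0279, 0.0376, 0.0481 and 0.0444). THUMPD3-AS1, SBF2-AS1, LOXL1-AS1 and ZEB1-AS1 were not called, with log2 fold changes of 0.06, 0.17, -0.13 and 0.17 (edgeR adjusted p = 0.534, 0.285, 0.254 and 0.392).

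In 24 members the partner was too low to be tested, at 0.190 CPM or less on average, while the members ran from 1.28 to 40.9 CPM. Of these, 7 were higher (IGFL2-AS1, CD27-AS1, SLC9A3-AS1, C10orf95-AS1, SNAI3-AS1, MMP25-AS1 and BAALC-AS1) and 2 lower (RHOXF1-AS1 and CEACAM16-AS1), beside 18.5% and 18.4% of all genes, with a median log2 fold change of 0.17 over the 24. These were named after their values were seen. SLC9A3-AS1 had 14.2, 13.6 and 13.9 CPM in siBYSL libraries, against 9.52, 9.74 and 9.94 CPM in siNC libraries (log2 fold change 0.51, SE 0.08, edgeR adjusted p = 0.000425), against 34 counts of the sodium-proton exchanger gene SLC9A3 in all libraries. C10orf95-AS1 had 10.5, 10.4 and 12.2 CPM in siBYSL libraries, against 6.80, 7.56 and 7.75 CPM in siNC libraries (log2 fold change 0.58, SE 0.10, edgeR adjusted p = 0.00116). In both the groups were apart, and BAALC-AS1 and MMP25-AS1 were at 3.23 CPM or less in every library. BAALC-AS1 held 160 counts in siBYSL and 95 in siNC libraries, and met the count limit for members through the siBYSL group.

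The machinery that removes or ends antisense transcription was read from lists of named genes. Of 29 tested genes of the nuclear exosome and its adaptors, which degrade such transcripts, 2 were higher and 9 lower, with a median log2 fold change of -0.12, beside 18.5% and 18.4% of all genes. The exosome subunit gene EXOSC5 averaged 15.2 ± 1.29 CPM in siBYSL libraries, against 22.2 ± 0.727 CPM in siNC libraries; log2 fold change -0.55, edgeR adjusted p = 0.000324. EXOSC9, another subunit gene, fell by 0.32 and C1D, a cofactor gene, by 0.35 on the log2 scale, while RBM7, an adaptor gene that recruits the exosome, was higher by 0.42 (edgeR adjusted p = 0.00102, 0.00128 and 0.000201). The subunit genes EXOSC2, EXOSC1 and EXOSC10 fell by 0.40, 0.37 and 0.17 on the log2 scale (edgeR adjusted p = 0.00128, 0.00438 and 0.0115). The subunit genes EXOSC3, EXOSC4, EXOSC6, EXOSC7 and EXOSC8 were not called, with log2 fold changes of -0.089, -0.25, -0.062, -0.12 and -0.20. Nor were the catalytic subunit gene DIS3, the helicase gene MTREX and the adaptor gene ZFC3H1. The other lower genes of this list were NCBP1, NCBP2 and ZCCHC8, and the other higher gene was TENT4A. Of 19 tested genes of Integrator and related termination factors, 6 were higher (31.6%) and 2 lower (10.5%), with a median of -0.012, beside 18.5% and 18.4% of all genes. Higher genes included INTS3 (0.42), CPSF3 (0.28), INTS2 (0.48) and INTS1 (0.23) (edgeR adjusted p = 0.00039, 0.00151, 0.0130 and 0.0158). The 2 lower genes were INTS4 (-0.24) and INTS7 (-0.22) (edgeR adjusted p = 0.0163 and 0.0208). Of 19 tested genes that act on double-stranded RNA, 3 were higher (15.8%) and 6 lower (31.6%), with a median of -0.12, beside the same shares of all genes. DICER1 (-0.58) and ILF2 (-0.32), a double-stranded RNA-binding factor gene, were lower, and the sensor gene IFIH1 (0.44) and the microRNA-processing gene DROSHA (0.27) were higher (edgeR adjusted p = 0.000189, 0.000604, 0.000396 and 0.00322). Their part in the antisense changes was not tested.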

How the data were processed

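Raw counts per gene for 6 libraries were deposited by the authors under versioned Ensembl identifiers, with symbols and gene types. Per the submitters' processing notes, HISAT2, DESeq2 and GRCh38.p13 were used, with no role stated; the sources used here do not name the counting tool, its strand setting or the annotation release. Software was edgeR 4.0.16, limma 3.58.1 and DESeq2 1.42.0 in R 4.3.3, and pandas 2.3.3, NumPy 2.4.6, SciPy 1.17.1 and Matplotlib 3.10.9 in Python 3.11.15. Genes kept by filterByExpr were scaled with TMM factors, and the 3 siBYSL libraries were compared with the 3 siNC libraries by edgeR's quasi-likelihood F test (robust, group only, two-sided), with the Benjamini-Hochberg method across 16412 genes and calls under 0.05. The method was checked on simulated counts. Depth ran from 27754883 to 32088817 counts, the common biological variation coefficient was 0.0649, and p-values speak only of the spread between cultures of a single line. The SE equals the absolute log2 fold change over the square root of F. CPM uses the TMM-scaled library size, and log ratios a prior count of 2.

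Partners were matched by exact symbol; for a repeated partner symbol the row with the larger sum was used. Starts, exons, strands and 3′ untranslated regions came from GENCODE 29 (GRCh38) and may not match the authors' annotation; promoter windows came from RefSeq (GRCh38.p14). Named members were the 10 largest rises and falls called without overlap between groups, up to 6 pairs in each direction class by the larger adjusted p, the 8 of highest mean CPM, a list of well-known members, and up to 4 genes per list. Genes named outside these rules, among them further list genes and further pairs, were not fixed in advance and are not all marked in the text. The values of 1 opposite pair are not reported here. Members, lists and rules were chosen with earlier results of these data known. Alternatives covered scaling (DESeq2's size factors, plain totals, the upper quartile, mitochondrial transcripts removed), filtering (none, or 1 CPM in 3 or more libraries), the test (DESeq2's Wald test or limma-voom), a block for replicate number, leaving out each library, member limits of 100 and 500 counts, members or pairs without exon overlap, and longest-transcript lengths.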

Additional observations from a re-analysis of the deposited data

How the results depend on the processing

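The direction of every called member held in all 15 alternative fits in which it was called, with 54 (without siNC 2) to 98 members (library totals) called and 54 to 93 of these among the 93 calls reported. Scaling by library totals moved the median of all genes from 0.0066 to 0.085 on the log2 scale. With that scaling, members stood at 83 higher and 15 lower (84.7% of calls higher, against 73.1% in the reported fit), with a member median of 0.22. Partners stood at 65 higher and 38 lower (63.1% of calls higher, against 46.1%), and 1989 genes were lower in all (67.4% of calls higher). Leaving out 1 library gave 40 to 68 members higher, 12 to 29 lower, member medians of 0.11 to 0.17, 2121 to 3929 genes higher, 2105 to 4075 lower, partners of 37 to 64 higher and 40 to 68 lower, and 6 to 17 opposite pairs with the member higher. A limit of 500 counts left 142 members, 42 higher and 16 lower, and members under no opposite exon had 7 higher and 3 lower, with fewer members tested in both. The longest-transcript length gave 25.5% and 22.1% for the level per length. The DESeq2 Wald test called 53 members higher and 17 lower, and limma-voom 68 and 22; opposite pairs with the member higher numbered 12 and 17. Pairs that rose together numbered 10 by DESeq2 and 24 with library totals, and pairs that fell together 7 with each of these, with upper-quartile factors and with the replicate block. A replicate block on the number in the labels gave 65 members higher and 18 lower and 15 opposite pairs with the member higher. Deviations of same-numbered libraries had correlations of -0.13, 0.060 and 0.011, and those of unlike number ran from -0.17 to 0.15. With 3 libraries per group and siBYSL 3 apart, this check cannot tell whether a number marks a shared batch. Partner values that were not called changed sign for GOLGA4 (-0.0082 to 0.23 with 1 library left out), SGMS1 (-0.0078 with no filter, -0.047 to 0.074 with 1 library left out), LENG8 (0.0014 with library totals), CARD8 (-0.024 to 0.072 with 1 library left out), HDAC2 (0.061 with library totals, 0.025 with upper-quartile factors, -0.048 to 0.032 with 1 library left out), ZBED5 (-0.0045 with no filter, -0.037 and -0.016 without siBYSL 2 and siNC 2) and SBF2 (-0.042 to 0.15 with 1 library left out). Causes of these shifts were not tested. Members near 1 CPM rest on few counts per library, which limits their calls.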
